A study of Mus musculus with 6 samples.

Results

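The genes of the major histocompatibility complex (MHC) that present peptides to T cells were followed in mouse liver during treatment with DDK, a limonoid by the series title. The 10 genes were taken by symbol from the deposited table of 22173 gene symbols, and all 10 were listed. They comprised 7 class II genes (H2-Aa, H2-Ab1, H2-Eb1, H2-DMa, H2-DMb1, Cd74 and Ciita) and 3 class I genes (H2-K1, H2-D1 and B2m). Livers came from 3 wild-type mice given DDK and 3 wild-type mice given vehicle. Every mouse started the HFHC diet at 6 weeks of age and stayed on it for 16 weeks, with dosing in the final 4, and all 6 livers therefore share genotype and diet. The labels spell out neither DDK nor HFHC and name no strain or sex. The study set out to learn how the compound protects in MASH, a fatty liver disease with inflammation.

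Class I molecules carry peptides made inside a cell and are found on nearly every nucleated cell, hepatocytes included. They consist of a heavy chain, here H2-K1 or H2-D1, and the invariant light chain beta-2-microglobulin, encoded by B2m. Class II molecules carry peptides from material that a cell has taken up. They are paired alpha and beta chains made mainly by dendritic cells, macrophages and B cells, and their genes are switched on together by the transactivator CIITA. In the liver, Kupffer cells and sinusoidal endothelial cells can also display class II.

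Promoters of both classes were searched for the letters of known elements, and 2 of each class are shown. For class II they are those of 2 chains that fell. For class I they are those of a heavy chain that fell (H2-K1) and the light chain that did not pass the test (B2m). Each stretch holds the 160 bases before the RefSeq transcript start on GRCm38.p6, in the direction of transcription. For the class II genes, H2-Aa lies at chr17:34287824-34287983 on the minus strand and H2-Eb1 at chr17:34305707-34305866 on the plus strand. For the class I genes, H2-K1 lies at chr17:34000348-34000507 on the minus strand and B2m at chr2:122147527-122147686 on the plus strand. Capitals mark matches, on either strand, to the letters searched: GNAACT (a core of the X box, marked only where the Y box follows at the distance given below), ATTGG (Y box, bound by NF-Y), TGACG (part of the cyclic AMP response element), AANNGAAA (a core of the interferon response element) and GGGATTCCC (NF-kB).
H2-Aa: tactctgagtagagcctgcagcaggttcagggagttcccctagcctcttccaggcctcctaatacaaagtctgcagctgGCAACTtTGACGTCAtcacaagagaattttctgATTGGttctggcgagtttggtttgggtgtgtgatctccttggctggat
H2-Eb1: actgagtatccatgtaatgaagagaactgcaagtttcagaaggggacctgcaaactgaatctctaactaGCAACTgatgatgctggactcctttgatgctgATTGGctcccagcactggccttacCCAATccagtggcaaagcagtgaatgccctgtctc
H2-K1: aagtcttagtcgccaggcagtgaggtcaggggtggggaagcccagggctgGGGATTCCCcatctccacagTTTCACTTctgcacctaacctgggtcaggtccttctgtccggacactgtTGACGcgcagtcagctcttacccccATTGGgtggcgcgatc
B2m: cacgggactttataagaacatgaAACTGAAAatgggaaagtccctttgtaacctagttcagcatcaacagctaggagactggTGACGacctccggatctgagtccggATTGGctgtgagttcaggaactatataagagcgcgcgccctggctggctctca

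In H2-Aa and H2-Eb1 the X box core GCAACT was followed by ATTGG, whose first base stood 33 and 32 bases further on. H2-DMb1 had the same order, with GTAACT and a distance of 33 bases. A core followed by ATTGG at 20 to 40 bases on one strand was found in 0.935% of the 32851 promoter windows of 300 bases in the table. ATTGG alone was in 37.4% of them, GNAACT in 42.8%, TGACG in 20.8% and AANNGAAA in 23.9%. H2-K1 and H2-D1 both held GGGATTCCC, at positions -110 and -170 from the transcript start, which was in 0.353% of windows. AANNGAAA was present in H2-K1 (position -90), H2-D1 (-150) and B2m (-137), and also in H2-Aa (-213) and in 1 of 2 windows for H2-DMa. The windows of H2-K1, H2-D1, B2m and H2-DMa did not hold the X and Y pair. The search letters were chosen after the promoters had been read. The table covered 7 of the 10 genes and those of H2-Ab1, Cd74 and Ciita were not used here. A match to letters is a description of the sequence and no evidence of binding.

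Transcript levels are in FPKM, which divides fragments by gene length and by library total. The totals behind the values were 26576291 to 30237490 fragments in DDK and 33963898 to 36105315 in vehicle libraries. DDK was compared with vehicle by limma on log2(FPKM + 1) over the 10681 genes that reached 0.5 FPKM in 3 or more libraries. Ciita was below that level and the other 9 genes passed. Over all genes tested the log2 fold change had a median of -0.23, so values relative to that median are given where they matter. Albumin, the defining hepatocyte transcript, stood at 35473 ± 2131 in DDK and 19383 ± 2044 in vehicle (Alb, SD, n = 3 per group). The vehicle libraries lay apart from each other on the first principal component, vehicle replicate 1 (14.1) nearest to DDK (-36.4 to -23.6) and vehicle replicates 2 and 3 at 36.2 and 40.01.

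Class II transcripts and the class I heavy chains fell in DDK livers, and B2m did not pass the test. All 6 class II genes tested were lower at an adjusted p under 0.05, as were 2 of 3 class I genes, while 30.3% of all genes tested were lower and 10.2% higher. The median log2 fold change was -1.27 over the class II genes and -0.62 over the class I genes, and the members were chosen with earlier results of these data in view. For each of the 7 class II genes every DDK liver was below every vehicle liver, which held for 39.2% of all genes tested. The transcripts come from whole liver, where fewer cells of a type and less RNA per cell cannot be told apart.

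**Figure D1:**
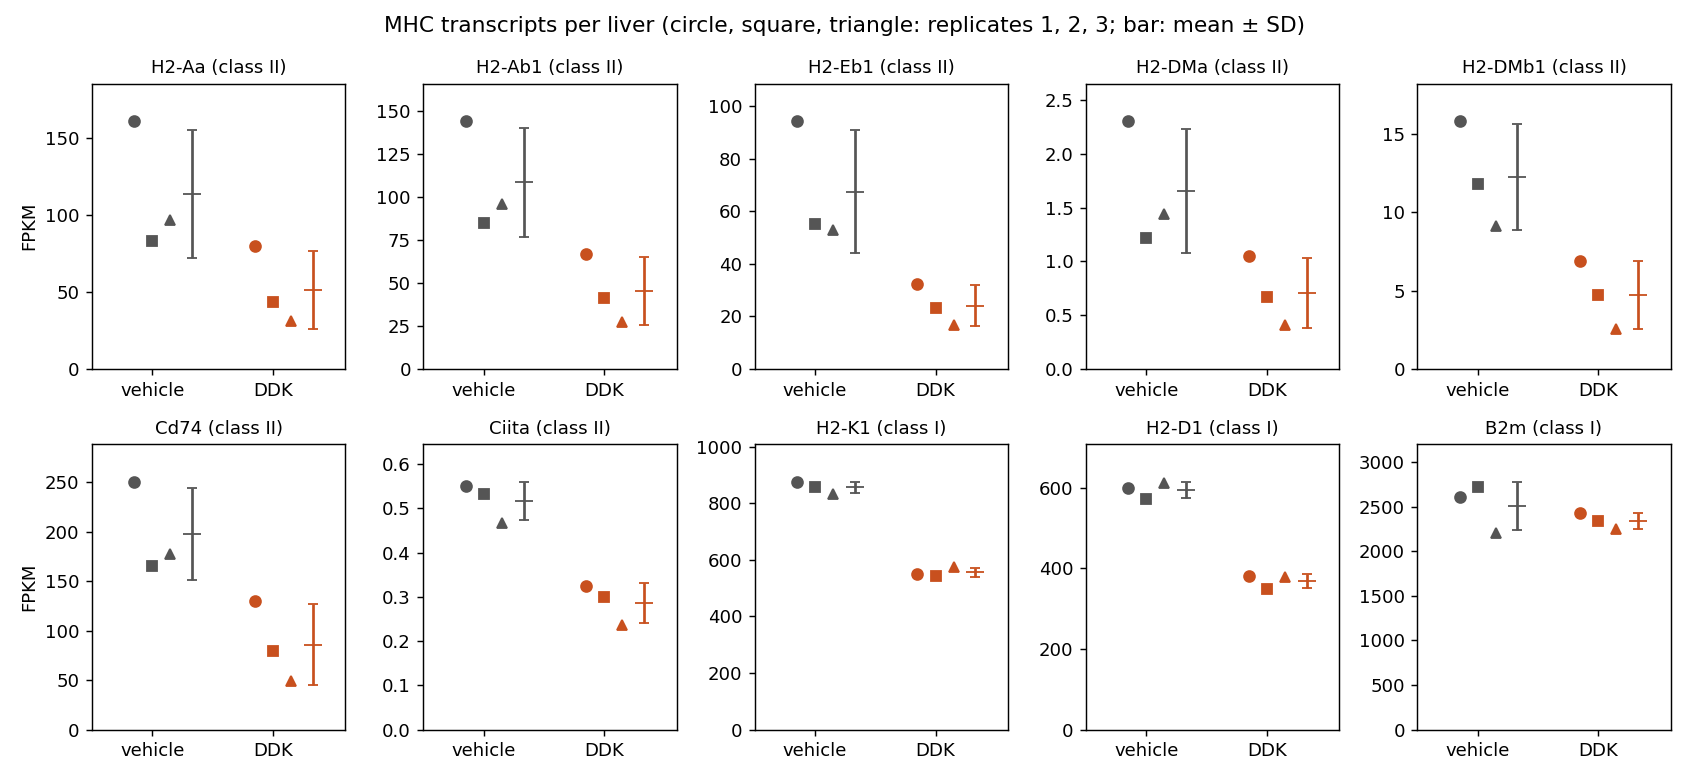
FPKM of the 10 genes in each liver, with vehicle in grey and DDK in orange. Points are single livers and bars are the mean ± SD of 3. In every class II panel vehicle replicate 1 is highest and DDK replicate 3 lowest, H2-K1 and H2-D1 form 2 tight groups, and the B2m groups overlap.

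The classical class II chains were the most abundant class II transcripts after Cd74. H2-Aa encodes the alpha chain of I-A and stood at an FPKM of 161, 83.2 and 96.3 in vehicle replicates 1 to 3 and at 79.7, 43.1 and 30.9 in DDK replicates 1 to 3. The groups came close without overlapping, since DDK replicate 1 reached nearly the level of vehicle replicate 2. Its log2 fold change was -1.18 ± 0.33 (SE, limma adjusted p = 0.0192). That call ended after median-ratio scaling (adjusted p = 0.0885), without a filter on low values (0.082), without DDK replicate 2 (0.0685) or 3 (0.0541) and without vehicle replicate 1 (0.0534). H2-Ab1, the beta chain that pairs with H2-Aa, stood at 144, 85.1 and 95.9 in vehicle and 66.9, 41.3 and 27.6 in DDK, with the groups apart (-1.29 ± 0.29, adjusted p = 0.00835). H2-Eb1, the beta chain of I-E, stood at 94.5, 55.1 and 52.9 in vehicle and 32.3, 23.1 and 16.8 in DDK. It had the largest fold change of the 10 genes and, of the 3 classical chains, the widest gap between groups in proportion to its level (-1.45 ± 0.26, adjusted p = 0.00343). The calls of H2-Ab1 and H2-Eb1 held in all 20 alternatives run.

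Ratios among the chains overlapped between the groups. H2-Aa was 1.12 ± 0.0737 times H2-Ab1 in DDK and 1.03 ± 0.0728 times in vehicle (SD, n = 3 per group). H2-Eb1 stood at 0.551 ± 0.0644 of H2-Ab1 in DDK and 0.618 ± 0.0577 in vehicle. H2-Aa lies on chromosome 17 from 34282744 to 34287823 (GRCm38, GENCODE M21), H2-Ab1 from 34257689 to 34269419 and H2-Eb1 from 34305867 to 34316674. On the same chromosome H2-DMa spans 34119541 to 34139101 and H2-DMb1 34153072 to 34160230. These genes are highly polymorphic between strains and the reference is that of C57BL/6J, so how the unknown strain affected the counts was not tested.

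Cd74, the invariant chain that fills the class II groove until it reaches endosomes, was the most abundant class II transcript. Its FPKM was 251, 165 and 177 in vehicle replicates 1 to 3 and 129.5, 79.4 and 49.01 in DDK replicates 1 to 3. The groups did not overlap, and DDK replicate 1 was 2.64 times DDK replicate 3. Cd74 fell by 1.28 on the log2 scale (SE 0.30, limma adjusted p = 0.00979), a call that ended when no minimum level was set (adjusted p = 0.0538). Cd74 stood at 1.88 ± 0.0864 times H2-Ab1 in DDK and 1.84 ± 0.103 times in vehicle, and the groups overlapped.

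H2-DMa and H2-DMb1 encode the chains of H2-DM, the endosomal editor that exchanges the invariant chain fragment for peptide. H2-DMb1 stood at 15.9, 11.8 and 9.1 in vehicle and 6.91, 4.75 and 2.55 in DDK, with the groups apart. It fell by 1.25 on the log2 scale (SE 0.28, adjusted p = 0.00804). Its call held in all 20 alternatives run. H2-DMa stood at 2.31, 1.21 and 1.44 in vehicle and 1.05, 0.664 and 0.405 in DDK, a mean level 2.34-fold higher in vehicle. On the log2(FPKM + 1) scale, which understates change at such levels, its fold change was -0.63 ± 0.19 (adjusted p = 0.0248). On recovered fragments, of which DDK libraries held 102 to 251 and vehicle libraries 345 to 693, voom gave -1.29. The H2-DMa call ended in 8 of the 20 alternatives, among them median-ratio scaling (0.0915), length correction (0.296) and the runs without DDK replicate 2 (0.0792) or 3 (0.0809) and without vehicle replicate 1 (0.051) or 3 (0.054). The deposited values of H2-DMa correspond to a gene length of 8325 bp, where the GENCODE M21 exons sum to 3448 bp and overlap those of Brd2 on the other strand over 360 bp. The level of H2-DMa beside H2-DMb1 (1284 bp) therefore depends on the gene model, and reads of overlapping genes were not told apart by a kit that does not mark strand.

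Ciita, the class II transactivator, was near the lower limit of the data but separated the groups. It stood at 0.55, 0.533 and 0.467 in vehicle and 0.324, 0.30 and 0.237 in DDK, from 155 to 194 fragments in vehicle and 70 to 91 in DDK libraries. The difference was -0.23 FPKM, with an exact two-sided permutation p = 0.1, the smallest that 3 against 3 livers can give. Fitted without the filter, its log2 fold change was -0.24 (adjusted p = 0.0261). The mean was 1.80-fold higher in vehicle, against 2.21-fold to 2.80-fold for the other 6 class II genes. Within groups Ciita varied less, by 1.37-fold from the highest to the lowest DDK liver, where the other class II genes varied by 1.92-fold to 2.71-fold. Ciita lies on chromosome 16 from 10480059 to 10528418. Its exons overlap those of Dexi on the opposite strand over 329 bp.

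The class I heavy chains were far more abundant and far more even among livers. H2-K1 stood at 875, 858 and 834 in vehicle replicates 1 to 3 and 549.8, 543 and 574 in DDK replicates 1 to 3. H2-D1 stood at 601, 573 and 612 in vehicle and 381, 349 and 378 in DDK. Both separated the groups clearly, with a spread within groups of at most 1.09-fold. H2-K1 fell by 0.62 on the log2 scale (SE 0.12, limma adjusted p = 0.00506) and H2-D1 by 0.69 (SE 0.12, adjusted p = 0.00331). Relative to the median of all genes, the changes were -0.40 and -0.46. After median-ratio scaling, which brings the median of all genes to 0.00, H2-K1 stood at -0.31 (adjusted p = 0.185) and H2-D1 at -0.38 (adjusted p = 0.0946), and neither passed. H2-K1 lies on chromosome 17 from 33996017 to 34000347 and H2-D1 from 35262730 to 35267499, on either side of the class II genes. H2-D1 was 0.665 ± 0.0251 of H2-K1 in DDK and 0.696 ± 0.0342 in vehicle. These genes share long near-identical stretches with each other and with the H2-Q and H2-T genes, so the division of fragments among them is uncertain.

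B2m, the light chain that every class I molecule needs, did not pass the test. It stood at 2608, 2719 and 2202 in vehicle and 2428, 2339 and 2249 in DDK, and the groups overlapped because vehicle replicate 3 was lowest of all 6. The log2 fold change was -0.10 ± 0.15 (adjusted p = 0.633). Its sign depended on the scaling, with 0.21 after median-ratio scaling, 0.046 without the 20 most abundant genes in the library total and -0.33 after rescaling to TPM. A correction for gene length gave -0.42 (adjusted p = 0.0254), and B2m, on chromosome 2 from 122147686 to 122153083, is the shortest of the 10 genes at 858 bp.

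**Figure D2:**
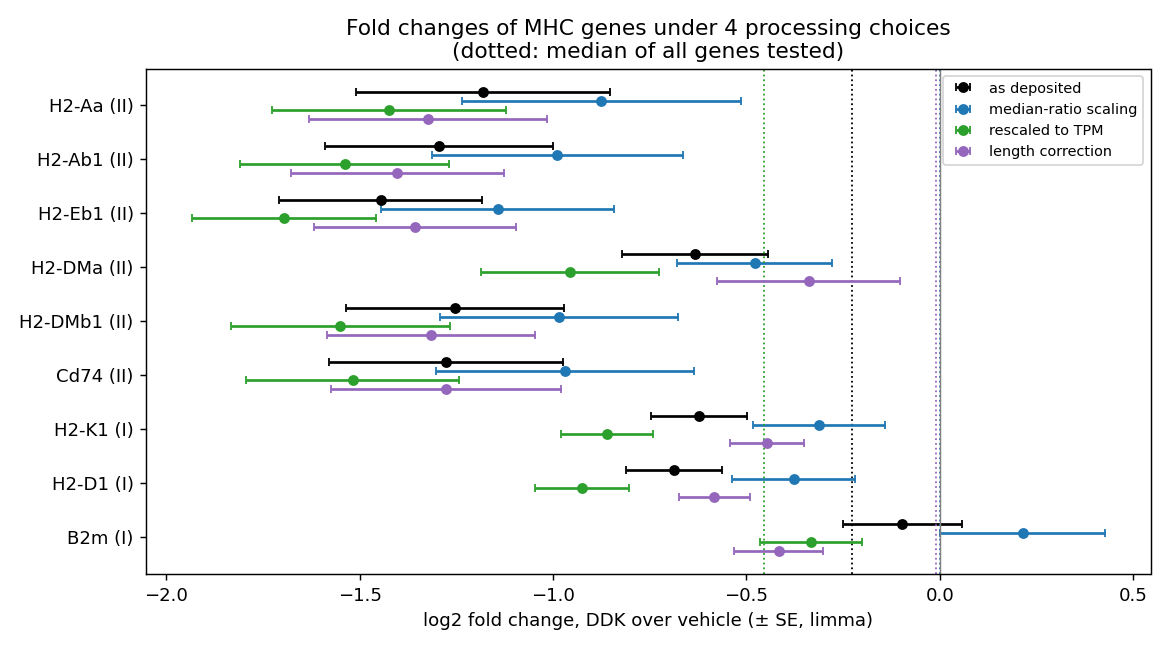
log2 fold change of DDK over vehicle (limma, ± SE) for the 9 genes tested, under the deposited scaling, median-ratio scaling, rescaling to TPM and length correction. Dotted lines are the median of all genes tested in each. Class II genes other than H2-DMa lie at -0.88 or lower in all 4, and B2m crosses 0.

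Ratios within a liver do not move with library scaling. For each 100 units of B2m FPKM, Cd74 stood at 9.61, 6.08 and 8.05 in vehicle and at 5.34, 3.39 and 2.18 in DDK. All DDK livers were below all vehicle livers, and the mean log2 ratio was lower by 2.29-fold in DDK (difference -1.19, exact two-sided permutation p = 0.1, the smallest possible with 3 livers per group). For H2-K1 the ratio was 33.6, 31.5 and 37.9 in vehicle and 22.6, 23.2 and 25.5 in DDK, again without overlap. Such ratios can still move with a correction for gene length. After it the log2 fold change was -0.45 for H2-K1 and -0.42 for B2m, nearly the same, and -1.28 for Cd74.

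Class II set against the heavy chain overlapped between groups. H2-Ab1 stood at 16.5, 9.92 and 11.5 per 100 units of H2-K1 in vehicle and 12.2, 7.61 and 4.80 in DDK. DDK replicate 1 lay above vehicle replicates 2 and 3. The mean log2(FPKM + 1) of the 6 class II genes tested minus that of the 3 class I genes was -4.31, -4.97 and -4.85 in vehicle and -4.89, -5.40 and -5.97 in DDK. It differed by -0.71 on average, and DDK replicate 1 lay between vehicle replicates 2 and 3. The difference was -0.44 without DDK replicate 3 and -0.28 after quantile normalization, and the groups no longer overlapped without DDK replicate 1 (-0.98) or vehicle replicate 2 (-0.84). No test was run on this score, because its members were chosen with results known.

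**Figure D3:**
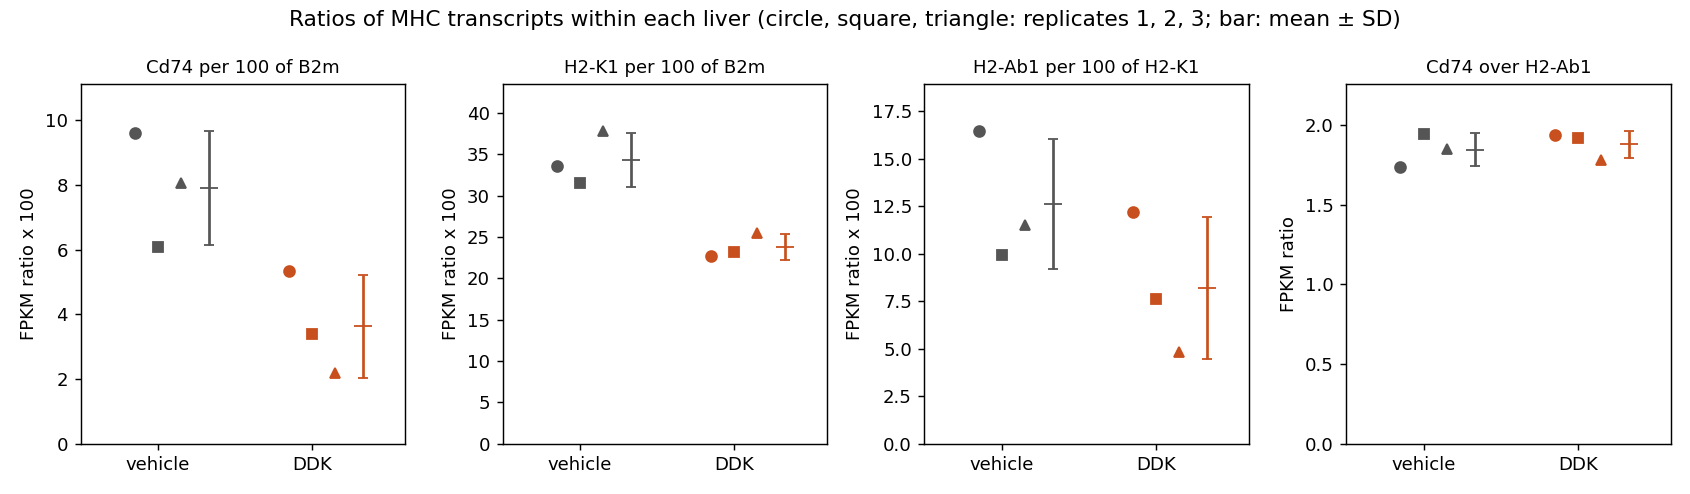
Ratios of FPKM values within each liver, vehicle in grey and DDK in orange, with the mean ± SD of 3. Cd74 and H2-K1 per 100 units of B2m separate the groups, H2-Ab1 per 100 units of H2-K1 overlaps, and Cd74 over H2-Ab1 lies between 1.74 and 1.94 in all 6 livers.

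The class II pattern varied with the liver as well as with treatment. In vehicle, replicate 1 was highest for all 7 class II genes. In DDK, replicate 1 was highest and replicate 3 lowest for all 7. Coefficients of variation were 32.3% to 49.6% in DDK for the 6 class II genes tested and 2.95% to 4.80% for the 3 class I genes. The 5 genes with profiles nearest to the class II mean over the 6 livers were Fcgr4, Fcer1g, Ms4a6d, Fcgr1 and Lrg1, with root mean square distances of 0.122 to 0.215 on the log2 scale among 9196 genes compared. Fcgr4 and Fcgr1 encode receptors for immunoglobulin G and Fcer1g the signalling chain they use. Fcgr4 stood at 14.8, 10.5 and 11.4 in vehicle and 8.23, 4.09 and 3.20 in DDK. The class II members themselves lay 0.083 (H2-Ab1) to 0.322 (H2-DMa) from their mean. Outside the members, the 3 genes nearest to the class I mean were Aars, Acadl and Tom1l1 (0.036 to 0.0432). Each class I member lay further from that mean, H2-K1 at 0.081, H2-D1 at 0.123 and B2m at 0.20. Aars, an alanyl-tRNA synthetase gene, stood at 38.1, 36.6 and 36.5 in vehicle and 26.1, 24.6 and 26.6 in DDK. The profile lists were picked from the data and carry no test.

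Markers of cells that display class II moved in part with it. The sum of the 3 class II chains was 399.5, 223 and 245 in vehicle and 179, 108 and 75.3 in DDK. The summed FPKM of 13 macrophage and Kupffer cell markers was 584, 473 and 744 in vehicle and 437, 299 and 181 in DDK. Of the 13, 8 passed the test as lower and 0 as higher (median log2 fold change -0.76), beside 30.3% lower among all genes tested. After median-ratio scaling 5 were lower, beside 1650 of all 10681 genes. Examples of the lower markers are C1qc (-1.55) and C1qb (-1.41), chains of complement C1q, and Adgre1 (-1.76), the F4/80 antigen. Among the markers that did not pass were Clec4f, Vsig4, Timd4, Marco and C1qa. Set against that sum, the class II chains stood at 0.684, 0.472 and 0.329 in vehicle and 0.410, 0.360 and 0.415 in DDK, and the groups overlapped. Of 5 general leukocyte markers 3 were lower and 0 higher, beside 30.3% lower among all genes tested. They include Ptprc, which encodes CD45 (-0.88, limma adjusted p = 0.00423).

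Most dendritic, B and T cell markers were too low to test. Among 8 dendritic cell markers 3 were tested and 1 was lower, Itgax (-0.86), which macrophages also make. That share is near the 30.3% lower among all genes tested. Clec9a (0.07, limma adjusted p = 0.645) and Batf3 (-0.05, limma adjusted p = 0.909) did not pass. Without the filter 2 of the 8 were lower, beside 2500 of all 16573 genes. Of the 5 below the filter, Flt3 and Xcr1 stood at or under an FPKM of 0.112 in all 6 libraries. Ccr7, a receptor of migrating dendritic cells, stood at 0.799, 0.370 and 0.760 in vehicle and 0.158, 0.0381 and 0.184 in DDK, without overlap. Zbtb46 and Cd209a overlapped between the groups. The markers below the filter were named after their values were seen. The dendritic sum was 4.0 to 5.47 in vehicle and 1.82 to 4.83 in DDK. For B cells, 2 of 8 markers were tested, and limma called 0, with 0 at an unadjusted p under 0.05 and 0 by voom. Their sum was 3.07 to 4.83 in vehicle and 2.0 to 4.69 in DDK, and Cd79a stood at 0.923 ± 0.214 in vehicle and 0.914 ± 0.128 in DDK. For T and NK cells, 4 of 9 listed markers were tested and limma called 0, with 0 at an unadjusted p under 0.05 and 0 by voom. Their sum was 4.98 to 11.7 in vehicle and 6.51 to 15.2 in DDK. The class II chains stood at 82.5 ± 42.1 times the B cell sum in vehicle and 36.6 ± 2.26 times in DDK, without overlap. Most markers in that sum were below the filter. Against the T and NK cell sum the ratio was 35.6 ± 13.1 in vehicle and 11.6 ± 0.183 in DDK, also without overlap. The groups overlapped against the dendritic sum (60.9 ± 19.2 in vehicle, 39.0 ± 15.7 in DDK) and the leukocyte sum (4.00 ± 1.11 and 2.79 ± 0.714). Of 7 endothelial markers tested 3 were lower and 0 higher, beside 30.3% lower among all genes tested. Pecam1 (-1.02) was among the 3. The endothelial count was 5 without vehicle replicate 2 and after rescaling to TPM, beside 2224 and 4929 of all 10681 genes. It was 2 after median-ratio scaling (beside 1650), quantile normalization (1756) and length correction (1844). It was also 2 without DDK replicate 3 (2775) or vehicle replicate 3 (1847). Without the filter it was 1 of 8, beside 2500 of 16573 genes. Of 9 hepatocyte markers 4 were higher and 1 lower, beside 10.2% higher and 30.3% lower among all genes tested. The higher count was 1 without DDK replicate 2, beside 610 of all 10681 genes. It was 2 without vehicle replicate 2 or 3, beside 709 and 643. The part of any of these markers in the class II result was not tested.

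**Figure D4:**
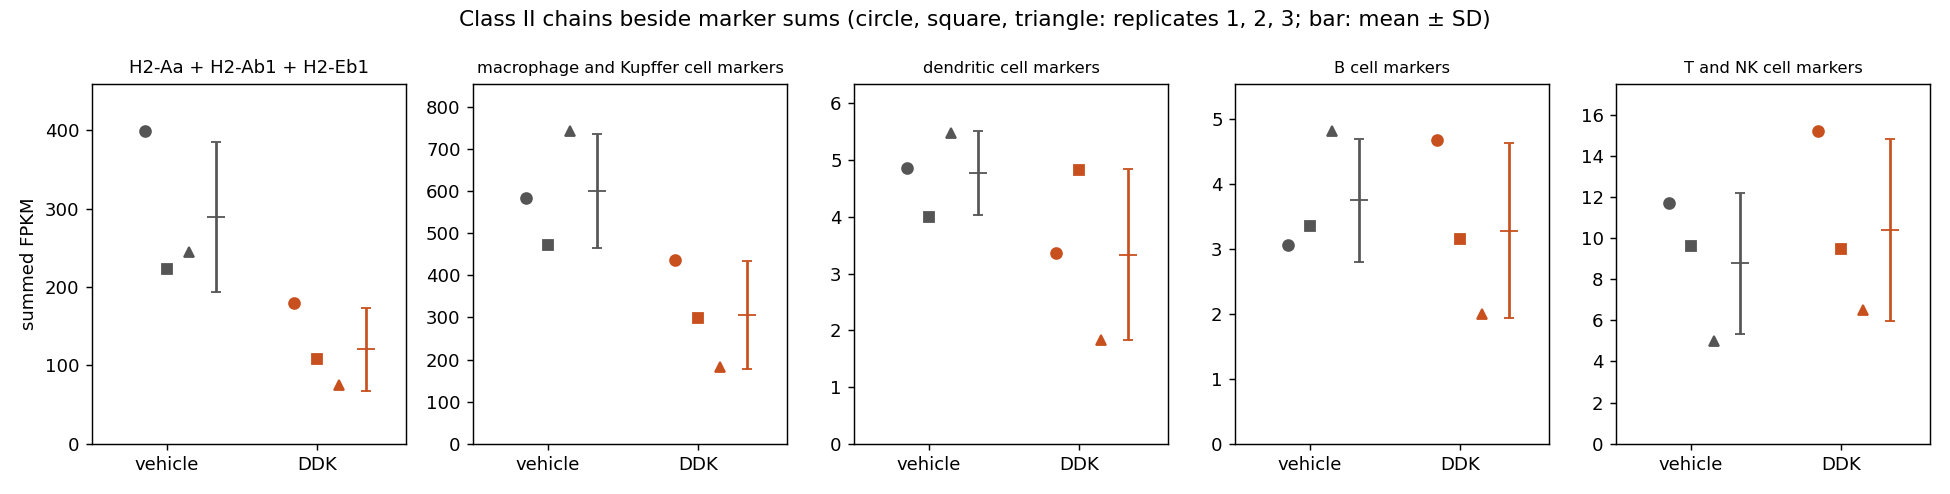
Summed FPKM per liver of the 3 class II chains and of 4 marker lists, vehicle in grey and DDK in orange, with the mean ± SD of 3. The class II chains and the macrophage and Kupffer cell sum are lower in all DDK livers, while the dendritic, B, and T and NK cell sums overlap between groups.

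Of the other class II genes of the region, H2-DMb2 was tested and was not called. H2-DMb2, a close copy of H2-DMb1, had mean levels of 0.597 ± 0.192 in DDK and 0.577 ± 0.0271 in vehicle livers (log2 fold change 0.01 ± 0.12, adjusted p = 0.947). H2-Oa, a chain of the H2-O modulator found in B cells and some dendritic cells, stood at 0.453, 0.144 and 0.337 in vehicle and 0.939, 1.20 and 0.460 in DDK. H2-Ob, its partner, stood at 0.104, 0.280 and 0.231 in vehicle and 0.558, 0.334 and 0.237 in DDK. H2-Eb2 went the other way, at 0.0682, 0.0576 and 0.029 in vehicle and 0.0086, 0 and 0.0163 in DDK. H2-Oa, H2-Ob and H2-Eb2 did not reach 0.5 in enough libraries to be tested, so their direction carries no test. They were named after their values were seen.

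Factors that bind class II promoters with CIITA were mostly not called. Of 7 genes tested 1 was lower and 0 higher, beside 30.3% lower and 10.2% higher among all genes tested. Their median log2 fold change was -0.26, near the -0.23 of all genes. The gene called was Rfxap, a subunit of the RFX complex that binds the X box, with means of 5.0 ± 0.399 in vehicle livers and 2.87 ± 0.190 in DDK livers (-0.63 ± 0.13, adjusted p = 0.00648). Rfx5, another RFX subunit, stood at -0.26 ± 0.12 (adjusted p = 0.114). The Y box subunit Nfya stood at -0.48 ± 0.20 (adjusted p = 0.0782). Without vehicle replicate 1 or after rescaling to TPM, 4 of the 7 were lower, beside 4330 and 4929 of all 10681 genes. With library weights 5 were lower, beside 4697 of all genes.

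Interferon gamma signalling, a major inducer of Ciita and of class I genes, was lower in several components. Of 9 genes tested 6 were lower and 0 higher (median -0.63), beside 30.3% lower among all genes tested. After median-ratio scaling 4 of the 9 were lower, beside 1650 of all 10681 genes. The receptor chain gene Ifngr2 stood at 14.6, 16.4 and 18.7 in vehicle and 5.40, 5.77 and 8.64 in DDK (log2 fold change -1.23, adjusted p = 0.00154). Irf8 (-0.82) and Jak1 (-0.68) were lower too. Irf1, the factor that acts on class I promoters, had a mean of 9.5 ± 1.29 in DDK livers and 8.9 ± 1.75 in vehicle livers (adjusted p = 0.68) and was chosen here after its values were seen. Ifng itself was at or under an FPKM of 0.144 in every library.

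Of 7 genes of endosomal antigen processing tested, 5 were lower and 0 higher (median -0.82), beside 30.3% lower among all genes. Ctss, the cathepsin that trims the invariant chain, stood at 63.4, 63.1 and 73.2 in vehicle and 25.1, 16.4 and 10.99 in DDK, the lowest vehicle liver far above the highest DDK liver. It fell by 1.94 on the log2 scale (SE 0.24, adjusted p = 0.000842). Lgmn, asparagine endopeptidase, fell by 1.22, Ctsd by 0.82, and Marchf8, a ubiquitin ligase of membrane proteins, by 0.97. Of 3 co-stimulation genes tested 1 was lower, a share near the 30.3% of all genes, so the count is no result about this list. The gene was Cd86, from 1.90 ± 0.307 to 0.798 ± 0.154 (-0.69, limma adjusted p = 0.00487). Cd40 passed as well without DDK replicate 1 (limma adjusted p = 0.044) or vehicle replicate 2 (0.041). It also passed after rescaling to TPM (0.0399) and with the replicate number as a block (0.0263).

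Class I loading genes were called in both directions. Of 14 genes 4 were lower and 3 higher, beside 30.3% lower and 10.2% higher among all genes tested, and the median of -0.19 was near that of all genes, so the lower count is no result about this list. Higher were Psme2, from 71.5 ± 14.2 to 131 ± 15.8 (0.87 ± 0.16, adjusted p = 0.00375), and Psme1, from 122 ± 22.3 to 189.7 ± 5.12 (0.65 ± 0.15, adjusted p = 0.00818). These encode the PA28 proteasome activator. The third was Nlrc5, the class I transactivator related to CIITA, at 1.87, 1.34 and 1.63 in vehicle and 3.08, 3.11 and 2.07 in DDK (0.51 ± 0.16, adjusted p = 0.0309). The Nlrc5 call ended without DDK replicate 1 (0.106) or 2 (0.118), without vehicle replicate 2 (0.107) or 3 (0.0798), after rescaling to TPM (0.0964) and without the filter (0.0787). Lower were Canx (-0.62), a chaperone of new heavy chains, Tap2 (-0.44), a chain of the peptide transporter, Erap1 (-0.45) and Tapbpl (-0.52). The list's counts were not stable. After median-ratio scaling, after length correction and without DDK replicate 2, 0 were lower, beside 1650, 1844 and 1738 of all 10681 genes. Without DDK replicate 1, vehicle replicate 2 or vehicle replicate 3, 1 was lower, beside 2154, 2224 and 1847. Without the 20 most abundant genes 1 was lower as well, beside 2369. The higher count was 5 without vehicle replicate 1, after median-ratio scaling and with library weights, beside 1356, 1963 and 1571 of all genes. With the replicate number as a block it was also 5, beside 1052. At an unadjusted p under 0.05 the deposited scaling gave 6 lower and 5 higher, and voom gave 3 lower and 3 higher past the adjusted threshold. The immunoproteasome genes Psmb8 (0.46 ± 0.19, adjusted p = 0.0719), Psmb9 (-0.04 ± 0.18, 0.864) and Psmb10 (0.56 ± 0.23, 0.082) did not pass. Psmb8 and Psmb10 passed as higher without vehicle replicate 1 (adjusted p = 0.0252 and 0.0026) and after median-ratio scaling (0.0264 and 0.0397).

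Non-classical class I genes were lower more often than not under the deposited scaling. Of 15 tested 10 were lower and 0 higher (median -0.46), beside 30.3% lower among all genes tested. After median-ratio scaling 5 were lower, beside 1650 of all 10681 genes. The count was also 5 under quantile scaling, with length correction and without DDK replicate 2, beside 1756, 1844 and 1738 of all genes. Without vehicle replicate 3 it was 6, beside 1847. H2-Q1 changed most of all MHC genes examined, at 19.1, 20.6 and 21.1 in vehicle and 4.64, 3.34 and 4.15 in DDK. The groups were far apart, and its log2 fold change of -2.08 ± 0.14 (adjusted p = 7.61e-05) kept its call in all alternatives run. H2-M3 (-0.74), which presents formylated peptides, and Fcgrt (-0.72), the neonatal Fc receptor heavy chain that pairs with B2m, were lower, and so was H2-Q9 (-0.82). H2-Q10, a secreted class I molecule made by liver and the most abundant gene of the list, stood at 2451, 2031 and 2095 in vehicle and 1653, 1576 and 1623 in DDK (-0.43 ± 0.15, adjusted p = 0.0396), and it was singled out after its values were seen. Its call ended when any library other than vehicle replicate 1 was left out (adjusted p = 0.0674 to 0.144) and after median-ratio scaling (0.67). H2-T23, which encodes Qa-1, had a mean of 193 ± 4.74 in DDK livers and 199 ± 15.2 in vehicle livers (adjusted p = 0.81), also chosen after its values were seen.

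**Figure D5:**
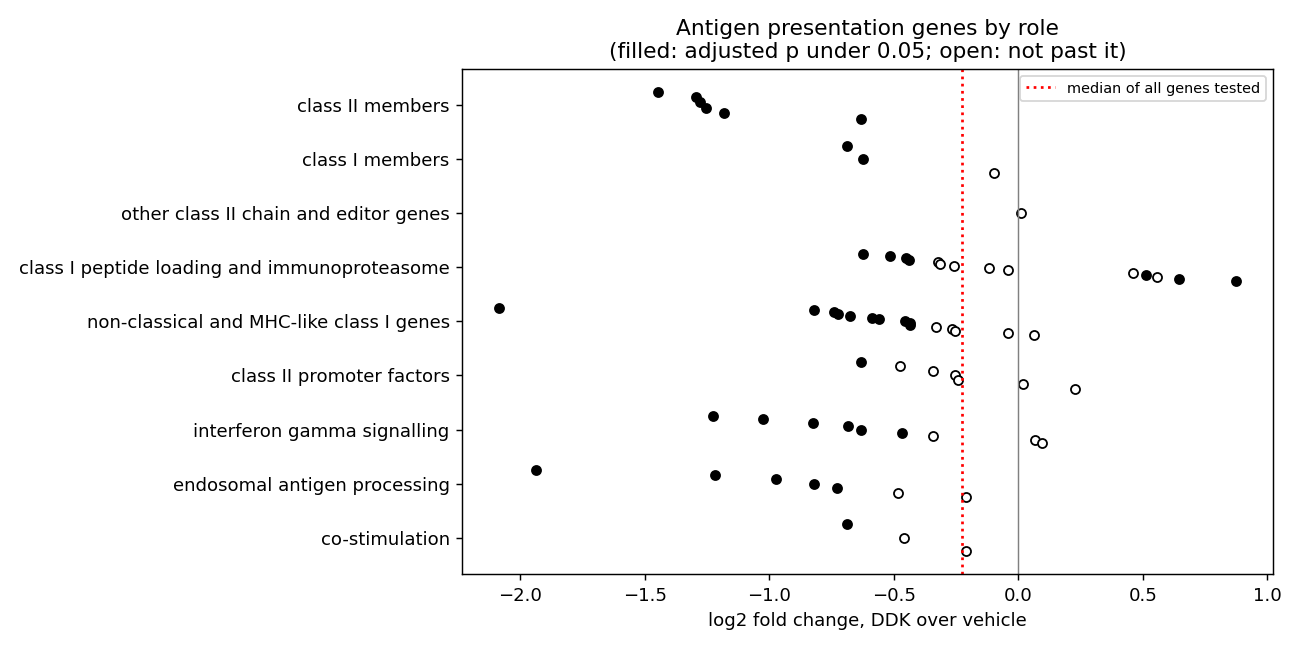
log2 fold change (DDK over vehicle) of each gene tested, by role. Filled points passed an adjusted p of 0.05 and open points did not, and the dotted line is the median of all genes tested (-0.23). The 6 class II members tested are filled and lie at -0.63 or lower, while H2-DMb2, from the other class II list, is open at 0.01. H2-Q1 is the lowest single gene, and the loading pathway spans both sides of 0.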

How the data were processed

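RNA-seq of liver from 6 mice (3 DDK, 3 vehicle, groups taken from the labels) was used. Per the labels' protocols, libraries were made with a NEBNext Ultra RNA kit. The values are the authors' deposited FPKM, and the build was GRCm38 (mm10) per the submitters' processing notes. For aligner, counting program, annotation and multi-mapping fragments, the answer is not given in the sources used here.

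Library totals, gene lengths and fragment counts were recovered from the FPKM steps, and 100.0% of values of the 16573 genes above 0 came out whole within 0.01 fragment. Libraries of each group differed beyond counting noise (chi-square per gene 21.0 to 138). The 10681 genes that reached 0.5 FPKM in 3 or more libraries were tested on log2(FPKM + 1) with limma 3.58.1 in R 4.3.3 (variance trend, Benjamini-Hochberg over all genes tested, threshold 0.05). Single ratios used an exact two-sided permutation test. Positions are from GENCODE M21 and promoter letters from RefSeq, both on GRCm38.

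Alternatives were pseudocounts of 0.1 and 0.5, no filter or a minimum of 1, 4 scalings, library weights, robust and untrended moderation, the replicate number as a block and each library left out. Length correction (lowess span 0.3) and voom on recovered fragments were added after the data were seen. Named genes are the 10 members, up to 4 genes per other list with the smallest p, and the genes with the nearest profiles; any other is marked as chosen after its values were seen or named to say what a count holds. The members and lists were chosen with earlier results of these data known. Symbols H2-Ea-ps, H2-Q8, H2-T9, H2-T10, H2-K2, Cd1d2 and Trac were fixed in the lists but not analysed here. 1 gene of the interferon gamma list is counted but not reported here by name.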

Additional observations from a re-analysis of the deposited data

How the results depend on the processing

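Of 4327 genes past the threshold, the number was 2348 to 5686 when 1 library was left out, with 2796 without DDK replicate 1, 2348 without DDK replicate 2 and 2490 without vehicle replicate 3. Library weights gave 6268 and voom on recovered fragments 4238. The split was 3234 lower and 1093 higher as deposited, 1650 and 1963 with median-ratio factors, 1756 and 1886 with quantile normalization, 4929 and 631 as TPM, 2369 and 1443 when scaled without the 20 most abundant genes, and 1844 and 1722 with length correction. Of the 6 class II genes tested, 4 were lower with median-ratio factors and without DDK replicate 2 or 3 or vehicle replicate 1; without a filter 4 of 7 were, Ciita being the added gene. Of the 3 class I genes, 0 were lower after median-ratio scaling (limma, 1 at an unadjusted p under 0.05) and 3 after length correction. B2m turned to 0.21 after median-ratio scaling and to 0.046 without the 20 most abundant genes. The log2 ratio of Cd74 to B2m ranged from -1.52 to -0.87 when 1 library was left out (exact p = 0.2, the smallest possible there). The class difference ranged from -0.98 to -0.44 in the same runs.

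The labels do not say whether the replicate numbers pair the livers. Deviations of same-numbered libraries correlated at 0.14, -0.15 and 0.056, and with 3 livers per group such values cannot settle it. With the replicate number as a block, the SE was smaller for the class II genes tested (Cd74, 0.18 against 0.30). It was larger for the class I genes (B2m, 0.17 against 0.15). With the replicate number as a block, 4134 genes passed, with 6 class II and 2 class I genes lower. For the ratio of Cd74 to B2m an exact sign-flip test over same-numbered pairs gave p = 0.25. That is the smallest p possible with 3 pairs, so it cannot show whether pairing weakens the difference. Not every library correlated best with its own number.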
